A study of Saccharomyces cerevisiae with 15 samples.

Results

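The response of wild-type budding yeast to hydrogen peroxide was measured on 1 of the 15 arrays of this series, the array labelled 0.4 mM H2O2 for 20 min. The members described here are the 5465 genes that had a value on that array, of 6249 genes or probes on the array design. Each 2-colour DNA microarray set polyA RNA of treated cells against polyA RNA of cells in mid-log growth, with 1 exception. That array set an snf1 deletion strain against the wild type, with no treatment. The series addressed how yeast cells adjust gene expression to stress, starvation and the TORC1 inhibitor rapamycin. With a single array for each condition, nothing was replicated, no test could be made, and the values below are sizes only.

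All cells were MATa Saccharomyces cerevisiae in the W303 background, and the peroxide array compared strain ACY044, the wild type, with itself. It is set beside the 6 other arrays of the same strain given 1 treatment for 20 min. Those treatments were heat shock at 42 °C, 0.375 M KCl as osmotic stress, 0.1% glucose as glucose starvation, amino acid starvation, nitrogen starvation and 200 nM rapamycin. The labels do not say whether the mid-log RNA was the same on these 7 arrays, so they may share a control. A ratio of pooled cells cannot tell a change in every cell from a change in some of them, and it shows abundance relative to all mRNA. Other arrays of the series, on an snf1 deletion strain or on combined treatments, enter only as a wider range, and the other mutant strain named in the design, ACY142, is not analysed here.

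Hydrogen peroxide oxidises protein thiols, iron-sulfur clusters, lipids and DNA. In budding yeast the thiol-sensing transcription factor Yap1, together with Skn7, controls thioredoxin and glutathione enzymes, while Msn2 and Msn4 control a general stress response that many treatments share. Hsf1 controls chaperones, Rpn4 the proteasome, and Aft1 and Aft2 the iron regulon, the genes for iron uptake that respond to iron-sulfur cluster supply. Growth genes, above all those for ribosomes, are usually repressed during stress.

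The peroxide array differed from the others in its dyes. Per the labels, its treated RNA was in Cy3 and its mid-log RNA in Cy5, whereas treated RNA was in Cy5 on the other 6 arrays. The sign of its log2 ratios was therefore turned, so that positive means higher in peroxide-treated cells. Peroxide and the reversed dye order cannot be told apart. The bright corner control spots, which hold no yeast gene, stood at −0.62 on the turned peroxide array, against 0.08 to 1.01 on the other 6 arrays. Before turning, these spots were brighter in Cy5 on 7 of 7 arrays. The other 5 kinds of control spot with a value lay between −0.21 and 0.35 on the peroxide array. Of these, E1A_r60_a107 was at −0.11, against 0.01 to 1.71 on the other 6 arrays, and E1A_r60_a135 at −0.21, against 0.12 to 2.21. E1A_r60_n11 (0.15), eQC-42 (0.15) and DCP_1_4 (0.35) were above 0 on the peroxide array and had both signs elsewhere. Of 6256 gene probes, 787 had no peroxide value, and 33 spots were listed at exactly 0. Values ranged from −3.15 to 6.10 with a median of 0.00. In 4 genes measured by several probes, the probes differed with a pooled SD of 0.151, a spread within the array and not between cultures.

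At least a 2-fold difference (an absolute log2 ratio of 1 or more) was the call used throughout. By it, 545 genes (9.97%) were higher and 670 genes (12.3%) lower in peroxide-treated than in mid-log cells. At least 4-fold, 135 genes were higher and 89 lower. At least 8-fold, 40 were higher and 2 lower, so the large differences were mostly in the upward direction. The corresponding 2-fold shares on the other 6 arrays were 11.1% to 16% higher and 11.5% to 19.1% lower. The highest values just under the call were at 0.99 and the lowest just above it at −0.99. Of the called genes, 224 of the higher and 157 of the lower were probes with no symbol here.

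The 15 highest named genes mixed heat-shock, iron, carbon metabolism and general stress genes. HSP30, a plasma membrane heat-shock protein, was highest at 6.10, against 9.39 on the heat shock array and 2.25 to 3.64 on the other 5. FIT2, a cell wall mannoprotein that helps retain iron-bearing siderophores, followed at 5.73. DDR2, a general stress gene, stood at 5.11, and here the peroxide value was inside the range of the other 6 arrays, 4.28 to 7.47. SOR1, a sorbitol dehydrogenase whose near-identical copy SOR2 can share its signal, stood at 5.06, and of the other 6 arrays 0.1% glucose gave a value, 1.98. The small heat-shock proteins HSP26 and HSP42 stood at 4.35 and 4.14. DAK2, a dihydroxyacetone kinase, stood at 4.32, TDH1, a glyceraldehyde-3-phosphate dehydrogenase, at 4.26, and ADH5, an alcohol dehydrogenase, at 3.72. TIS11 (also called CTH2), which promotes decay of mRNAs of iron-using proteins, stood at 4.15, and ARN2, a siderophore transporter, at 3.76. The list was completed by the membrane protein HSP12 at 3.89, MSC1 at 3.75, the stress-induced MAP kinase phosphatase SDP1 at 3.63 and the glutamate decarboxylase GAD1 at 3.63.

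The 15 lowest named genes came mainly from ribosome production and the cell surface. CCW12, an abundant cell wall mannoprotein, was lowest at −3.01, against 1.49 to 2.44 on the other 6 arrays, with no overlap. CWP2, another cell wall mannoprotein, stood at −2.57, against 0.79 to 2.15. PHO89, a sodium-phosphate cotransporter, stood at −2.71, against 0.33 to 2.15. These 3 genes were low only among the peroxide values, whereas the ribosome assembly genes NOG1 (−2.72), NSR1 (−2.66), RRP12 (−2.45), NOG2 (−2.46) and DBP7 (−2.54) were below 0 on every one of the 7 arrays that measured them. NSR1, a nucleolar protein, was at −4.73 to −2.10 on the other 6 arrays, so its peroxide value was within their range. ASC1, a protein of the small ribosomal subunit, stood at −2.63, against −1.14 to 0.49. The others were GFD2 (−2.66), the purine salvage enzyme HPT1 (−2.63), the cell cycle repressor YOX1 (−2.57), MTH1 (−2.48), which represses hexose transporter genes, NRP1 (−2.48) and the ribosomal protein gene RPL4A (−2.47).

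**Figure D1:**
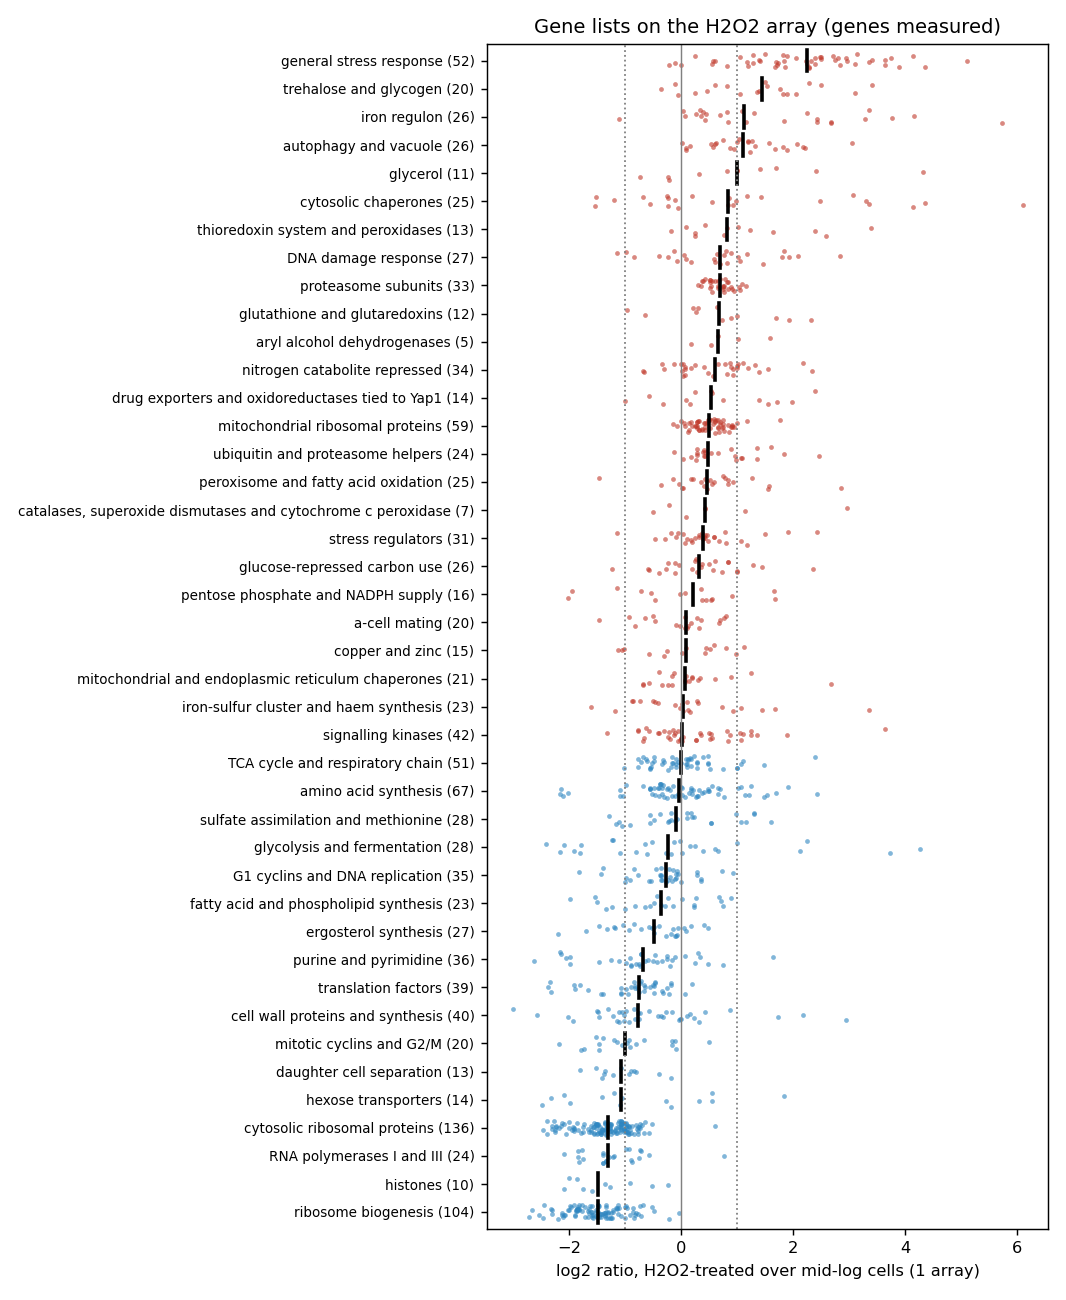
Log2 ratio of peroxide-treated over mid-log cells for every measured member of 42 gene lists on the single peroxide array. Each point is a gene, the black bar is the list median, dotted lines mark 2-fold, and lists run from general stress genes (median 2.24) to ribosome biogenesis genes (median −1.495).

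Genes that break down peroxides were higher in peroxide-treated cells for some members and near 0 for others. Of 16 thioredoxin and peroxidase genes, 13 were measured, 6 (46.2%) were at least 2-fold higher and 0 lower, beside 9.97% of all genes. GPX2, a thioredoxin-dependent peroxidase controlled by Yap1 and Skn7, stood at 3.38, against 0.05 to 1.81 on the other 6 arrays. TSA2, the less abundant peroxiredoxin, stood at 2.58, against 1.28 to 3.90, so it was no higher in peroxide than under several other treatments. GPX1 stood at 2.39 and TRX2, the main stress-inducible thioredoxin, at 1.63, against 0.83 to 1.57 for TRX2. The cytosolic peroxiredoxin AHP1 stood at 1.22 and the mitochondrial thioredoxin TRX3 at 1.02. Values below the call were 0.81 for the mitochondrial thioredoxin reductase TRR2, 0.76 for the nuclear peroxiredoxin DOT5, 0.42 for the cytosolic thioredoxin reductase TRR1, 0.25 each for the methionine sulfoxide reductase MXR1 and the peroxide sensor HYR1, 0.08 for the main peroxiredoxin TSA1 and −0.18 for TRX1. TRR1 lay between −0.56 and 0.35 elsewhere, so the peroxide array held its highest value, by a margin of 0.07. Across the 12 members with a value on all 7 arrays, the median was 0.785 under peroxide, and the other 6 medians were 0.48 to 0.885. SRX1, PRX1 and MXR2 had no named probe.

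The catalase and superoxide dismutase list did not stand above the other treatments. CTT1, the cytosolic catalase, was at 2.96, against 5.94 under heat shock, 6.48 under KCl, 3.25 in 0.1% glucose and 0.91 to 1.66 under the remaining 3 treatments. SOD2, the mitochondrial superoxide dismutase, was at 1.13, CTA1, the peroxisomal catalase, at 0.43, and SOD1, the cytosolic dismutase, at 0.42. Its copper chaperone CCS1 was at 0.09, the flavohaemoglobin YHB1 at −0.21 and cytochrome c peroxidase CCP1 at −0.50. Thus 2 of 7 members (28.6%, beside 9.97% of all genes) were 2-fold higher. The list median of 0.42 was below the 0.65 to 1.57 of the other 6 arrays.

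Glutathione genes showed the same mixture. Of 21 genes, 12 were measured and 3 (25%, beside 9.97% of all genes) were at least 2-fold higher. These were the glutathione transferase ECM4 (2.31), the glutaredoxin GRX2 (1.93) and the transferase GTT2 (1.69). GTT1 at 0.99, GRX1 at 0.88, glutathione reductase GLR1 at 0.72 and the first enzyme of glutathione synthesis, GSH1, at 0.63 were positive but below the call. GLR1 had 0.27 to 0.62 on the other 6 arrays, a narrower span and just below the peroxide value. The iron-linked monothiol glutaredoxins GRX3 and GRX4 stood at 0.21 and −0.97, GRX5 at 0.30, GSH2 at 0.26 and the glutathione transporter OPT1 at −0.65.

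Among drug exporters and oxidoreductases tied to Yap1, 5 of 14 measured genes (35.7%) were 2-fold higher and 1 (7.14%) lower. Of all genes, 9.97% were higher and 12.3% lower. Under heat shock 6 of the same 14 genes were called higher, and under KCl 5. The list median of 0.535 lay inside the −0.145 to 0.825 of the other 6 arrays. LOT6, a quinone reductase, stood at 1.38, against −0.67 to 0.51 on the other 6 arrays. OYE2, the old yellow enzyme, was at 0.75, against −2.58 to 0.36. The exporters FLR1 and ATR1, both known Yap1 targets, were at 0.08 and 0.24, and PDR5 at −1.01 was the member called lower. CYC7 (2.39), ZTA1 (1.97), GRE3 (1.71) and GRE2 (1.55) were the other called members. All 5 measured aryl alcohol dehydrogenases were above 0, with AAD4 at 1.58 and AAD6 at 1.01. NADPH supply was uneven: TKL2 (1.68) and SOL1 (1.66) were called higher, the first enzyme of the pentose phosphate pathway, ZWF1, was at 0.53, and TKL1 (−1.14), RKI1 (−1.95) and ALD6 (−2.03) were called lower.

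Iron genes had the list median that lay farthest above those of the other 6 arrays, of 42 lists compared. Of 30 genes of the iron regulon, 26 were measured and 25 were above 0. At least 2-fold, 14 (53.8%) were higher and 1 (3.85%) lower, beside 9.97% and 12.3% of all genes. Over the 25 genes that all 7 arrays measured, the median was 1.15 under peroxide, against −0.43 to 0.41 on the other 6 arrays. In 17 of these 25 genes, peroxide gave the highest of the 7 values, and in 8 it did so by at least 1 on the log2 scale. Over all 4862 genes measured on the 7 arrays, 21.3% had their highest value under peroxide, and 0.782% by that margin.

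FIT2, one of 3 siderophore retention proteins, led the list. FIT2 was at 5.73 under peroxide, against −0.46 under heat shock, 0.92 under KCl, 0.48 in 0.1% glucose, 0.21 without amino acids, 0.33 without nitrogen and 1.23 with rapamycin. FIT3, the next gene to FIT2 on the chromosome, was at 2.68, against 0.47 to 1.80, while FIT1 was at 0.27 and within the range of the others. Siderophore transporters followed. ARN2 was at 3.76, against −0.46 to 1.14, ARN1 at 2.42, against −1.47 to 0.34, and SIT1 at 3.28, against −1.95 to 2.09. ENB1, the enterobactin transporter, was at 2.67, and its value without amino acids, 2.42, was close to that.

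Genes of reductive uptake had smaller values, and several of them had a sign opposite to that under the other 6 treatments. FET3, the multicopper oxidase of high-affinity iron uptake, was at 1.15 under peroxide, against −1.35, −0.92, −1.63, −0.59, −0.45 and −0.47 under heat shock, KCl, low glucose, amino acid starvation, nitrogen starvation and rapamycin. FTR1, its permease partner, was at 0.35, against −2.35 to −0.40. FRE1, a cell surface ferric reductase, was at 0.42, against −3.25 to −1.55. FET3, FTR1 and FRE1 were thus above mid-log under peroxide and below it under the other 6 treatments, although FTR1 and FRE1 did not reach 2-fold. The same held, also below 2-fold, for the ferric reductase FRE4, at 0.33 against −3.02 to −0.59, and for the copper carrier ATX1, at 0.07 against −1.80 to −0.50. CCC2, which takes copper from Atx1 and loads it into Fet3, was at 2.25. FRE3 (1.84), FRE2 (1.09) and COT1 (1.30) were called higher, but FRE3 and FRE2 were higher still under heat shock, at 3.12 and 1.30.

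Genes that act on iron inside the cell included both high and low members. TIS11 stood at 4.15, against 1.33 under heat shock and −2.67 to −0.45 under the other 5 treatments. HMX1, the haem oxygenase that frees iron from haem, was at 3.36, against 0.48 to 2.29, and MRS4, a mitochondrial iron carrier, at 2.42, against 0.72 to 1.59. CCC1, which moves iron into the vacuole for storage, was at −1.12, against −0.20 to 0.67, and is the member called lower. The regulators themselves were below the call, AFT1 at 0.47 and AFT2 at 0.46. MMT1, a mitochondrial metal transporter outside the list, was at 0.26, against −3.01 to −1.12. The iron-sulfur scaffold genes ISU1 and ISU2 were at 1.44 and 1.68, and HEM1, the first enzyme of haem synthesis, at −1.62, with a list median of 0.04 over 23 genes.

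**Figure D2:**
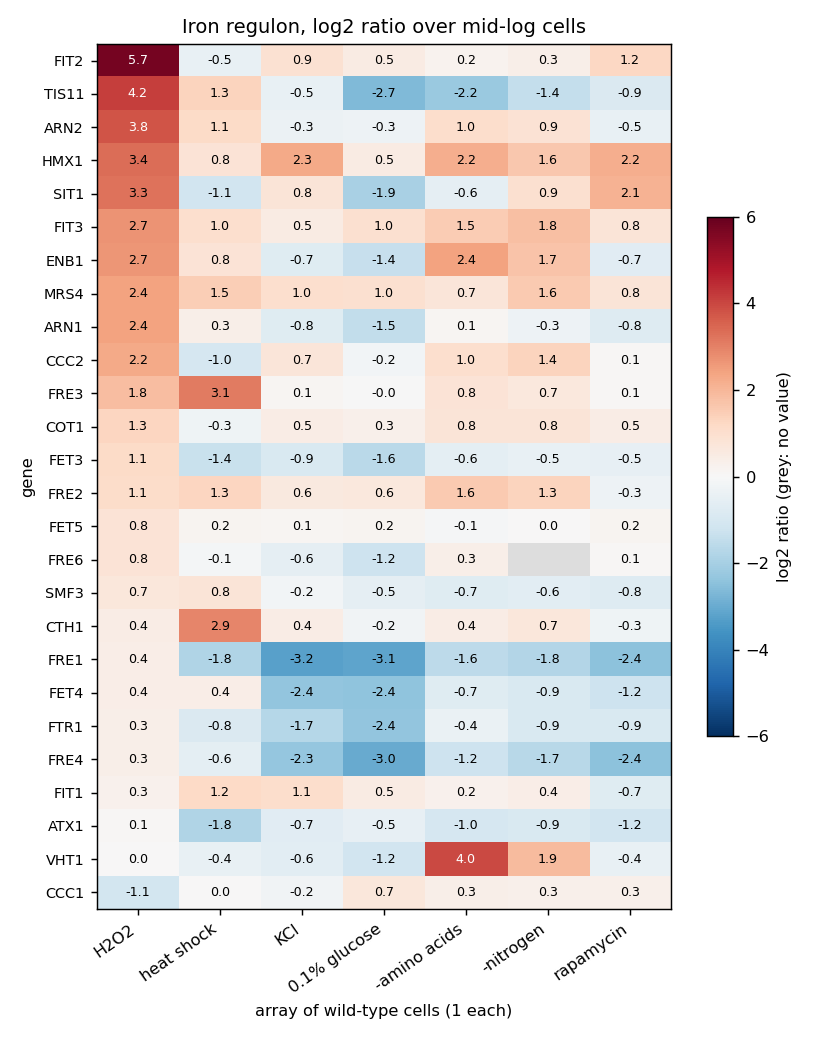
Log2 ratio over mid-log cells (colour and printed value, grey for no value) of the 26 measured iron regulon genes on the 7 wild-type arrays, 1 array per column and peroxide at the left. FIT2, TIS11 and ARN2 at the top are high under peroxide, and FET3, FRE1, FTR1, FRE4 and ATX1 are above 0 there and below 0 in the other 6 columns.

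Copper and zinc genes did not follow the iron genes as a list, with a median of 0.09 over 15 members. Of these, 1 (6.67%) was called higher and 3 (20%) lower, beside 9.97% and 12.3% of all genes. CTR1, the high-affinity copper transporter that supplies Fet3, was at 0.80, against −3.31 to −0.37. ZRT1, the high-affinity zinc transporter, was at −0.58, against −4.74 to −3.53 under the 5 treatments other than heat shock (−0.33). The metallothionein copies CUP1-1 and CUP1-2, which can share signal, were at 1.12 and 0.98.

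Chaperone genes separated peroxide from heat shock. Of 34 cytosolic chaperone genes, 25 were measured, 9 (36.0%) were 2-fold higher and 3 (12%) lower, beside 9.97% and 12.3% of all genes. The list median was 0.83 under peroxide, against 2.52 under heat shock, 0.57 under KCl and a minimum of −0.85 among the other treatments. Peroxide values were at least 1 lower than heat shock values in 19 of 25 genes and at least 1 higher in 2. Of all genes, 13.6% were lower and 13.4% higher by that margin. SSA4, an inducible Hsp70, was at 3.35, against 8.25 under heat shock and 3.78 under KCl. BTN2, which sorts misfolded protein, was at 3.30, against 6.94 and 0.54, and the disaggregase HSP104 at 2.48, against 5.85 and 1.97. HSP82, the inducible Hsp90, was at 1.43, against 4.19 and 1.15. The ribosome-bound Hsp70 genes SSB1 and SSB2 were lower, at −1.53 and −1.54, as was SSA2 at −1.20. In mitochondria and the endoplasmic reticulum 2 of 21 genes (9.52%, near the 9.97% of all genes) were called higher, HSP78 (2.67) and MDJ1 (1.25), whereas KAR2 was at −0.68 and HAC1 at −0.69.

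General stress genes were higher as a list, with a median below those under heat shock, KCl and low glucose. Of 64 genes, 52 were measured, 44 (84.6%) were 2-fold higher and 0 lower, beside 9.97% and 12.3% of all genes. Over 50 genes on all 7 arrays the median was 2.135, against 3.23 under heat shock, 3.69 under KCl, 3.105 in low glucose and 1.505 to 1.685 under the other 3 treatments. Against KCl, 31 of 52 genes were at least 1 lower under peroxide and 0 at least 1 higher. Of all genes, 8.37% were lower and 10.4% higher by that margin. Against heat shock 25 of 50 were lower and 2 higher, beside 13.6% and 13.4% of all genes. The lowest members were GPP1 (−0.21), GSY1 (−0.11) and HOR7, which was listed at exactly 0 on the peroxide array, against 2.28 to 5.75 elsewhere. Of 20 storage carbohydrate genes 13 (65%, beside 9.97% of all genes) were called higher, and the leading value was 3.41 for TSL1, a subunit of trehalose synthase. Their median was 1.44, against 2.695 under heat shock, 2.21 under KCl, 2.72 in low glucose and 0.865 to 1.51 under the other 3 treatments. TPS1, its catalytic subunit, was at 1.81, against 3.23 under heat shock and 3.76 under KCl. In glycerol metabolism DAK2, GPD1 (2.41), GCY1 (1.70) and GPP2 (1.40) were called higher. GPP2, glycerol-3-phosphatase, was at 4.74 under KCl.

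**Figure D3:**
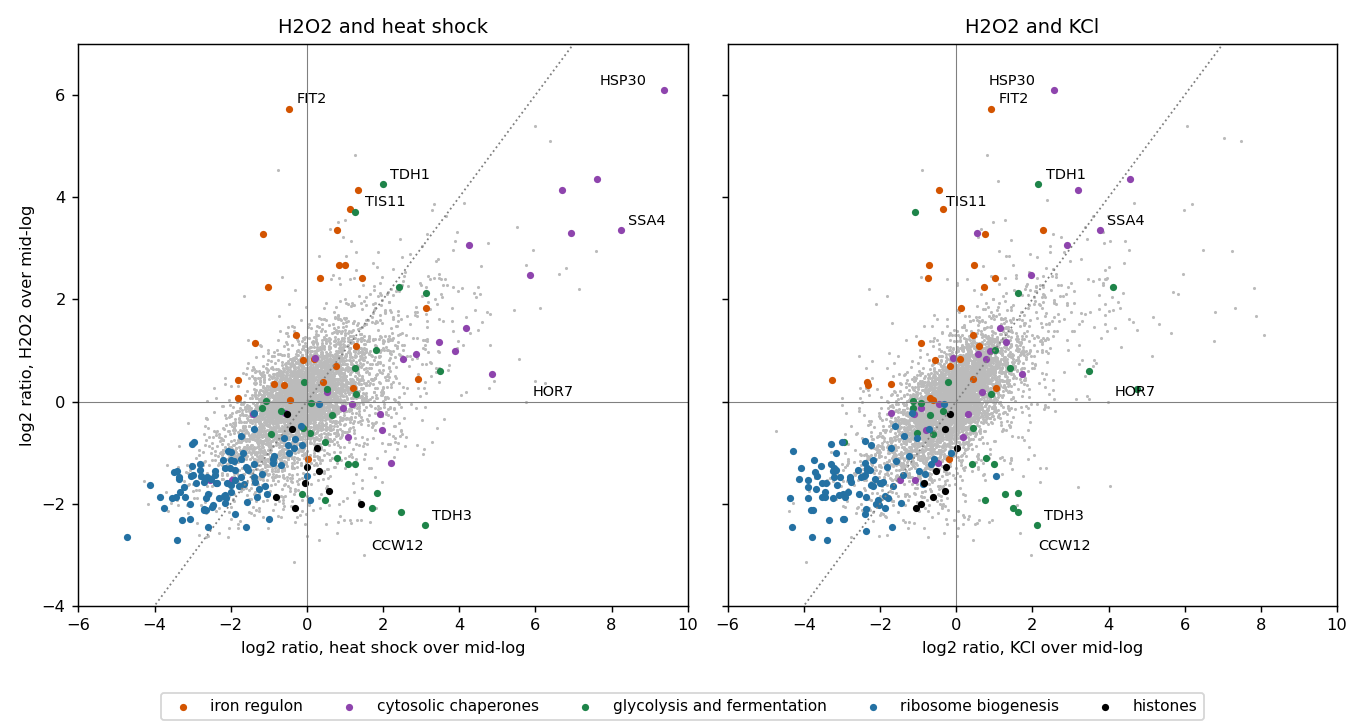
Log2 ratio of peroxide-treated over mid-log cells (vertical) against the heat shock ratio (left panel) and the KCl ratio (right panel), 1 array each and 1 point per gene, with 5 lists coloured and the dotted line marking equal values. Iron genes such as FIT2 and TIS11 lie above the line in both panels, and chaperones such as SSA4 lie below it against heat shock. TDH3 and CCW12 lie at the lower right.

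Direct differences between arrays gave 684 genes (13.4% of 5121) at least 1 higher and 695 (13.6%) at least 1 lower under peroxide than under heat shock. Against KCl the numbers were 554 (10.4% of 5330) and 446 (8.37%). The balance depended on the scaling: with each array centred on its median, 563 were higher and 794 lower against heat shock, and 488 higher and 492 lower against KCl. FIT2 had the largest positive difference from both, 6.19 from heat shock and 4.81 from KCl. SIT1 was 4.42, CCC2 3.28 and ARG1, an arginine biosynthesis gene, 3.09 above heat shock. ADH5 was 4.80, TIS11 4.60 and ZRT1 4.16 above KCl. At the other end TKL2 was at −6.20, the stress genes GRE1 and ALD3 at −5.60 and −5.58 and the hexose transporter HXT5 at −5.49 relative to KCl. Relative to heat shock, HOR7, listed at exactly 0 under peroxide, was at −5.75, TDH3 at −5.51 and SSA4 at −4.90. If the mid-log RNA was shared, it cancels in these differences, but the dye order does not.

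Proteasome genes were shifted upward by a small and even amount. All 33 subunit genes were above 0, from 0.30 (RPN10) to 1.16 (PRE1), with a median of 0.69. Only PRE1, RPT2 (1.08), RPN5 (1.05) and RPN3 (1.03), 12.1% of the list, reached 2-fold, close to the 9.97% of all genes. Over 32 subunits on all 7 arrays, peroxide had the highest median, 0.675, against −0.045 to 0.465, and 18 subunits had their highest value there. RPN4, the transcription factor for these genes, was at 0.38, against 2.27 under heat shock. Ubiquitin genes included UBC8 (2.46), UBI4, polyubiquitin (1.84), UBC5 (1.60), UFD1 (1.36) and DDI1 (1.35). Of 24 measured, 7 (29.2%) were called higher, beside 9.97% of all genes. Over 23 ubiquitin genes on all 7 arrays the median was 0.43, against 0.13 to 0.43 on the other 6. Of these 23, 6 were called higher under peroxide, 5 under heat shock and 5 under KCl. Autophagy genes were above 0 in 26 of 26 cases, with 14 (53.8%) called, beside 9.97% of all genes, and the ubiquitin-like ATG8 at 3.05. Their median over 25 genes, 1.19, was close to the 0.62 to 1.15 of the other arrays.

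DNA damage genes held several values that were highest under peroxide. Of 27 measured genes, 9 (33.3%) were 2-fold higher, beside 9.97% of all genes, and 1 lower. Of 26 genes on all 7 arrays, 11 had their highest value under peroxide, where 21.3% of all genes had theirs. DUN1, a checkpoint kinase that raises nucleotide supply, was at 1.18, against −0.12 under heat shock, −0.61 under KCl, −1.34 in low glucose, −0.72 without amino acids, −0.26 without nitrogen and −0.45 with rapamycin. RAD53, the kinase upstream of it, was at 0.89, against −1.75 to −0.34, and PLM2, a transcription factor gene of the damage response, at 1.46, against −1.20 to 0.33. RNR3, the damage-inducible ribonucleotide reductase subunit, was at 1.92, but heat shock gave 1.80. HUG1, a reductase inhibitor, was at 1.04, against 1.10 under heat shock, so for both genes the 2 arrays gave similar values. DDR48 (2.83), PHR1, the photolyase (2.09), and MAG1, a DNA glycosylase (1.80), were also called. OGG1, which removes oxidised guanine, was at −0.98 and the polymerase REV1 at −1.15.

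Histone genes were lower under peroxide. All 10 were below 0, 7 (70.0%) by at least 2-fold beside 12.3% of all genes, with a median of −1.48, against −0.415 to 0.13 on the other 6 arrays. HTB2 and HTA1 were at −2.09 and −2.0, and HTA1 was at −0.92 to 1.42 elsewhere. In 9 of 10 histone genes the peroxide value was the lowest of the 7, where 13.6% of all genes had their lowest. The linker histone HHO1 (−0.24) and the variant HTZ1 (−0.53) were the least low. Histone gene copies are similar in sequence and can share signal.

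Other cell cycle lists differed in their shares of lower genes. Among G1 cyclin and replication genes 4 of 35 (11.4%, near the 12.3% of all genes) were 2-fold lower, including the cyclins PCL1 (−1.83), CLN1 (−1.44) and CLN2 (−1.40). Their median of −0.25 over 34 genes was above the −0.965 to −0.55 of the other 6 arrays, and 18 had their highest value under peroxide. Among these, RFA1, the single-strand DNA binding subunit, was at 0.93 and the polymerase POL1 at −0.22. Mitotic genes were lower in 10 of 20 cases (50%), beside 12.3% of all genes. They were led by the cyclin CLB2 at −2.18 and the kinase CDC5 at −1.79. Over 19 mitotic genes on all 7 arrays the median was −0.96, inside the −1.5 to −0.27 of the other 6. Of these 19, 9 were lower under peroxide, 11 under heat shock and 9 under KCl. Daughter separation genes were lower in 7 of 13 (53.8%), beside 12.3% of all genes, with SUN4 at −1.81. Over 12 of these genes on all 7 arrays the median was −1.005, against −1.86 under heat shock and −0.305 under KCl. It was 0.295 to 0.425 under the remaining treatments. Of these 12, 6 were lower under peroxide, 10 under heat shock and 1 under KCl.

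Glycolytic genes split by isoform. Of 28 measured genes, 5 (17.9%) were 2-fold higher and 9 (32.1%) lower, beside 9.97% and 12.3% of all genes. TDH1 was at 4.26, against 1.99 under heat shock, 2.16 under KCl, 1.63 in low glucose, −0.30 without amino acids, −0.23 without nitrogen and 1.72 with rapamycin. TDH3, the main isoform, whose similar copy TDH2 (−0.52) can share its signal, was at −2.42, against 3.09, 2.12, 1.32, 0.74, 0.39 and 2.29 in the same order. TDH1 was thus the highest and TDH3 the lowest of the 7 arrays. GLK1 (2.25) and PYK2 (2.12), minor glucokinase and pyruvate kinase forms, were called higher, as were ADH5 and PFK26 (1.00). PGK1 (−1.79), CDC19 (−1.81), PDC1 (−1.92), ADH1 (−2.09) and ENO2 (−2.17), the main or sole forms for their steps, were called lower. PGK1 was at 0.36 to 2.13 on the other 6 arrays.

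A list of 24 paralogue pairs of a stress-linked and another copy was also examined. It holds some of the glycolytic pairs above and was chosen after the values were seen, so it gives a description only. In 21 pairs both copies were measured, and the stress-linked copy was at least 1 higher in all 21. The median difference was 2.50 under peroxide, against 2.33 under heat shock and 3.0 under KCl for the same 21 pairs. The stress-linked copy was 2-fold higher in 18 pairs, and the other copy was 2-fold lower in 5 and higher in 0. Both calls, stress-linked copy higher and other copy lower, were met in 4 pairs. Under heat shock the other copy was 2-fold lower in 3 pairs and higher in 7, and under KCl lower in 4 and higher in 5. TDH1 over TDH3 differed by 6.68 under peroxide, against −1.10 under heat shock and 0.04 under KCl. SSA4 over SSA2 differed by 4.55, PYK2 over CDC19 by 3.93 and GPX2 over HYR1 by 3.13, and the smallest difference was 1.05 for GRX2 over GRX1.

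**Figure D4:**
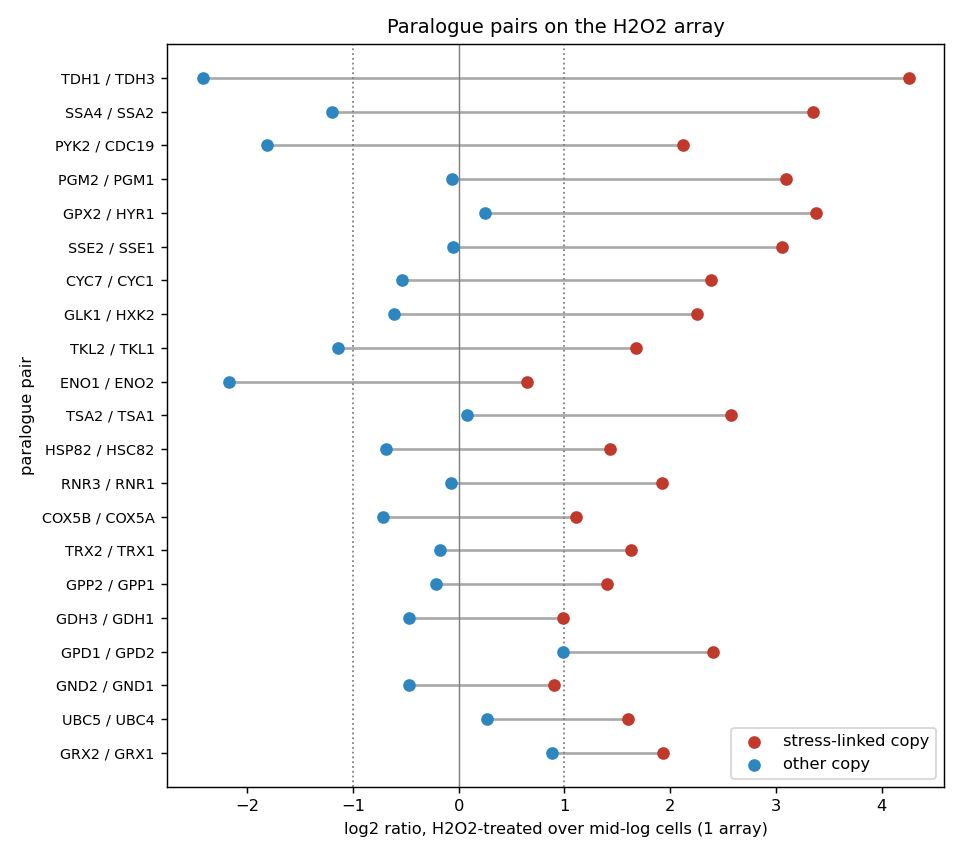
Log2 ratio of peroxide-treated over mid-log cells for both members of 21 paralogue pairs on the single peroxide array, with the stress-linked copy in red and the other copy in blue. The red point is to the right in every pair, by 6.68 for TDH1 over TDH3 and by 1.05 for GRX2 over GRX1.

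Cell surface and hexose transport genes were lower as well. Of 40 measured cell wall genes, 15 (37.5%) were 2-fold lower and 3 (7.5%) higher, beside 12.3% and 9.97% of all genes. The list median of −0.765 compared with −0.145 to 0.55 on the other 6 arrays. SPI1 (2.95), PIR3 (2.17) and YGP1 (1.72) were the higher members and GAS1, a glucan-modifying enzyme, was at −2.03. Of 14 hexose transport genes 8 (57.1%, beside 12.3% of all genes) were lower, among them HXT2 (−2.32), HXT3 (−2.09) and HXT4 (−1.99). HXT5, the stress-induced transporter, was higher at 1.84.

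Genes low under peroxide and above 0 on the other 6 arrays included several that encode abundant proteins. There were 20 such genes (0.411%) at 2-fold, 14 of them named: CCW12, PHO89, CWP2, TDH3, PGK1, ENA1, TIR2, SPB1, SED1, ACT1, HXT7, PMP3, BGL2 and HXT6. ACT1, the actin gene, was at −1.20, against 0.34 to 1.26. The reverse pattern had 4 genes (0.0823%), 2 of them named, DUN1 and FET3. Without a fold threshold, 140 genes (2.88%) were below 0 under peroxide and above 0 on the other 6, and 182 (3.74%) were the reverse. The bright corner control, at −0.62 against 0.08 to 1.01, lay in the direction of the 20 genes, as did the control spots E1A_r60_a107 and E1A_r60_a135. The control spots E1A_r60_n11, eQC-42 and DCP_1_4 were above 0 under peroxide. The part of the dye order in the 20 genes was not tested.

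Relative to the 6 other wild-type arrays, 38 genes (0.782%) lay at least 1 above the range and 80 genes (1.65%) at least 1 below it. By the same count heat shock had 194 (3.99%) and 94 (1.93%), KCl 24 (0.494%) and 18 (0.37%), and nitrogen starvation 12 (0.247%) and 47 (0.967%). The 10 named genes farthest above were FIT2 (by 4.50), TIS11 (2.82), ARN2 (2.62), TDH1 (2.10), ARN1 (2.08), FRE1 (1.97), FET3 (1.60), GPX2 (1.57), INM1 (1.53), an inositol monophosphatase gene, and MMT1 (1.38). The 10 farthest below were CCW12 (by 4.50), CWP2 (3.36), PHO89 (3.04), TDH3 (2.81), TIR2 (2.34), a cell wall mannoprotein, HOR7 (2.28), PMP1 (2.26), a small regulator of the proton pump, SED1 (2.26), another cell wall protein, HXT7 (2.24) and PGK1 (2.15). The gap of HOR7 rests on a peroxide value listed at exactly 0, and such zeros were kept as values on this array. Set against all 13 other treated arrays, FIT2 was still 3.98 above the range and INM1 0.54. On the same scale CCW12 was 4.01 below it and HXT7, whose near-identical copy HXT6 can share its signal, 0.51.

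**Figure D5:**
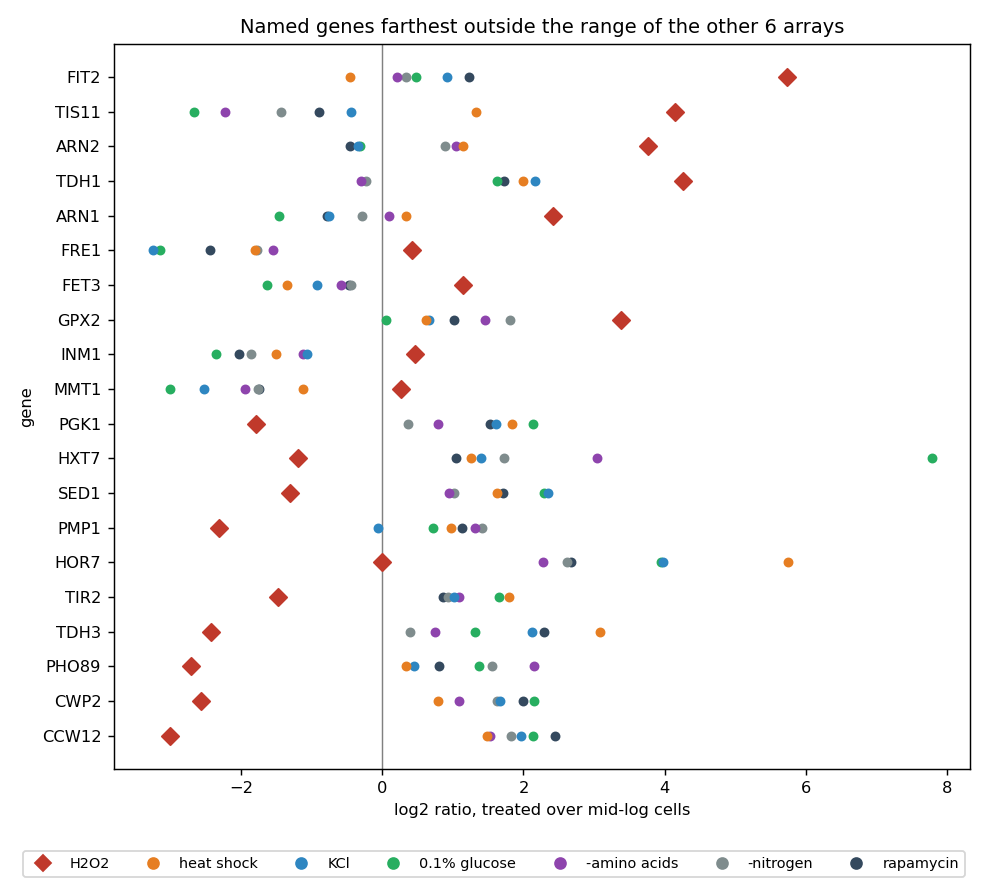
Log2 ratio over mid-log cells of the 10 named genes farthest above and the 10 farthest below the range of the other 6 wild-type arrays. Red diamonds are the peroxide array and circles the other 6 arrays, and the gap is 4.50 for FIT2 at the top and 4.50 for CCW12 at the bottom.

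Ribosome production was lower under peroxide, as under all 6 other treatments. All 104 measured ribosome biogenesis genes were below 0 and 88 (84.6%) were 2-fold lower, beside 12.3% of all genes. Over 73 genes on all 7 arrays, the median was −1.48, against −2.12 under heat shock, −2.50 under KCl and −2.59 to −1.57 over all 6 others. In 50 of 93 genes the peroxide value was at least 1 above the KCl value, beside 10.4% of all genes. Of 24 RNA polymerase I and III genes 15 (62.5%, beside 12.3% of all genes) were lower, with RPA34 at −2.09. MAF1, the repressor of polymerase III, was at 0.77. Cytosolic ribosomal protein genes were 2-fold lower in 105 of 136 cases (77.2%), beside 12.3% of all genes. Their median of −1.31 lay inside the −2.70 to −0.745 of the others, and RPL15B at 0.60 was the single member above 0. Among translation factors 12 of 39 (30.8%) were lower, beside 12.3% of all genes. Lowest were HYP2 (−2.38) and the near-identical elongation factor genes TEF1 (−2.35) and TEF2 (−2.32). TEF1 was at −0.27 to 1.05 on the other 6 arrays.

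Mitochondrial ribosomal protein genes went the other way from cytosolic ones. Of 59 measured genes 56 were above 0 and 0 were 2-fold lower, beside 12.3% of all genes. MRP8 (1.76) and MRPL25 (1.18) were the 2 called higher, 3.39% of the list, below the 9.97% of all genes. The list was drawn by gene symbol, and the symbol alone does not show that MRP8 is a ribosomal protein gene. Their median over 57 genes, 0.51, was the highest of the 7 arrays, against −0.58 under heat shock, 0.07 under KCl and at most 0.34 elsewhere. Peroxide gave the highest value in 31 of these 57 genes, where 21.3% of all genes had theirs. At least 1 above heat shock were 33 of 59, beside 13.4% of all genes. Respiratory chain and tricarboxylic acid cycle genes had a median of −0.05 over 49 genes, below the 0.18 to 1.38 of the others, with IDH2 at 1.48, IDH1 at 1.07 and SDH1 at −1.03.

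The regulators of stress genes were mostly near mid-log levels. Of 31 measured, 5 (16.1%) were 2-fold higher and 1 (3.23%) lower, beside 9.97% and 12.3% of all genes. The list median was 0.38. CIN5 (2.42), MGA1 (1.91) and CAD1 (1.5) led, and CAD1, the Yap1 relative also called Yap2, was at 0.43 to 0.72 on the other 6 arrays. GTS1 (1.18) and the haem-dependent repressor ROX1 (1.06) were the other 2 called higher. YAP1 was at 0.78, against −0.14 to 1.47, and SKN7 at −1.14, against −1.27 to −0.71, so SKN7 was low on all 7 arrays. Next came YAP3 (0.79), SKO1 (0.67), YAP5 and HSF1 (both 0.59), YRR1 and CUP2 (both 0.42), MSN2 (0.40), HAA1 (0.37), RIM15 (0.32), RPH1 (0.31), STB5 (0.25), ARR1 (0.20), GIS1 (0.17), WAR1 (0.10), PDR1 (0.07) and PDR3 (0.04). Below 0 were CRM1 (−0.06), the exporter of Yap1 from the nucleus, HOT1 (−0.10), MSN4 (−0.18), YAP7 (−0.29) and HAP1 (−0.46). These are mRNA levels, and Yap1 and Msn2 are known to be controlled largely by their location in the cell.

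Amino acid synthesis genes and sulfate and methionine genes were called in both directions, beside 9.97% higher and 12.3% lower of all genes. Purine and pyrimidine, ergosterol, and fatty acid and phospholipid genes were called mostly lower. Of 67 amino acid synthesis genes 10 (14.9%) were higher and 7 (10.4%) lower, with ARG1 (2.43), ARG4 (1.91) and SER3 (1.70) at the top and GLT1 (−2.17), ILV5 (−2.15) and LYS4 (−2.12) at the bottom. ARG1 was at −1.53 to −0.66 under heat shock, KCl and low glucose and at 1.24 to 2.37 under amino acid starvation, nitrogen starvation and rapamycin. GCN4, the activator of these genes, was at −1.09. Sulfate and methionine genes had 5 higher (17.9%) and 4 lower (14.3%) of 28, with the sulfate transporter SUL2 at 1.61 and the methionine transporter MMP1 at −1.29. Purine and pyrimidine genes had 1 higher (2.78%), URA10 (1.63), and 9 lower (25%) of 36, including FCY2 (−2.17) and AAH1 (−2.14). Ergosterol genes had 0 higher and 7 lower (25.9%) of 27, with ERG11 at −2.20 and ERG1 at −1.70. Fatty acid and phospholipid genes had 0 higher and 6 lower (26.1%) of 23, with URA7 at −1.99 and FEN1 at −1.54.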

How the data were processed

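Members and gene lists were chosen with earlier results of these data known. The authors deposited the log of the Cy5 over Cy3 ratio per spot, with 2 decimals. The deposited values were read as log2 because of their range. Neither the base nor the background correction, the normalisation or the filter on spots is stated in the labels. The direction follows the dyes per the labels. Values were not recentred, and medians of the other 6 arrays were −0.13 to 0.01. Exact zeros on 6 arrays with 717 to 1256 of them were treated as no value. Probes had 1 symbol (4075), several (0) or none (2181) in the platform annotation. Of the symbols, 129 were updated and 4071 matched the R64 gene table. Probes of 1 gene were averaged for 7 genes, and unused columns numbered 0. Counts used pandas 2.3.3 and numpy 2.4.6 in Python 3.11.15. The counting code was tested on simulated data. Genes were named by rule: the 15 highest and 15 lowest, all peroxide defence genes and stress regulators, the 3 highest and 3 lowest of other lists with regulators and paralogues, and the 10 farthest outside the range on each side. Further genes were named after their values were seen.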

Additional observations from a re-analysis of the deposited data

How the results depend on the processing

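No paired analysis was possible because each condition had 1 array and the labels give no replicate numbers. The main counts were 545 higher and 670 lower genes, and 38 genes above and 80 below the range of the other 6 arrays. A 1.5-fold threshold gave 1171 higher and 1209 lower genes, and a 4-fold threshold 135 and 89. A margin of 0.5 gave 223 genes above and 219 below the range, and the range of all 13 other treated arrays, chosen after seeing the data, gave 21 and 37. By construction these thresholds and ranges keep more or fewer genes. Centring each array on its median, using genes measured on all 15 arrays, keeping zeros as values, leaving out zeros on the peroxide array and counting each probe alone moved no count by over 1.5 times and turned no list median past 0, except medians already near 0: the respiratory list, 0.00 in the main result, was −0.05 over genes on all 15 arrays and 0.015 without zeros. Against heat shock, keeping zeros gave 744 higher and 726 lower, where the main counts were 684 and 695. Spot intensities were not analysed here, so noise in dim spots is unknown. With 1 array of this dye order, no value separates peroxide from dye. Near-identical copies can share signal, among them HXT6 and HXT7, TEF1 and TEF2, and the A and B ribosomal protein genes.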

Other observations

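Some gene groups not described above had shares of higher genes from 15.4% to 26.5%, beside 9.97% of all genes, and are given by their values. Nitrogen catabolite repressed genes were 2-fold higher in 9 of 34 cases (26.5%) and lower in 0, led by the repressor gene DAL80 at 2.33, the vacuolar aminopeptidase gene APE1 at 2.18 and the GABA transaminase gene UGA1 at 1.54. DAL80 was at 5.23 without nitrogen and 4.28 with rapamycin, and at 0.02 under KCl. Peroxisome and fatty acid oxidation genes were higher in 4 of 25 cases (16%) and lower in 1, with SPS19 at 2.85, CAT2 at 1.57 and FOX2 at 1.54 at the top and the fatty acyl-CoA synthetase gene FAA4 at −1.47. SPS19, a dienoyl-CoA reductase gene, was at 0.96 to 2.18 on the other 6 arrays, so its peroxide value was the highest of the 7.

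Glucose-repressed genes were 2-fold higher in 4 of 26 cases (15.4%), with the malate dehydrogenase gene MDH2 at 2.35, CYB2 at 1.44 and PCK1 at 1.28, and MIG2 was at −1.24. Of 42 signalling genes 8 (19.0%) were higher and 1 lower. Beside the phosphatase gene SDP1 these included TPK2, a catalytic subunit of protein kinase A, at 1.89 and the kinase gene YAK1 at 1.35, and RAS1 was at −1.33. The a-cell mating genes had a median of 0.09 over 20 genes, and FAR1 at −1.47 was the member past 2-fold. Of named neighbours on a chromosome that were both at least 4-fold different, there were the pairs FIT2 and FIT3 (5.73 and 2.68), UBC8 and GLC3 (2.46 and 2.50), and SRO9 and GFD2 (−2.13 and −2.66).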
